A study of Drosophila mojavensis with 95 samples.

Results

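The 80 transcripts described here were those whose array level was higher in flies from Baja California than in flies from Sonora while their level, averaged over all populations, stayed nearly level through desiccation. They were chosen by these measured values among the 14528 transcripts of the table. Arrays were averaged within each of the 24 combinations of population, diet and time, and a population's mean was the equal-weight mean of its 6 groups. A transcript counted as time-stable when its means at 0, 9 and 18 h over all populations spanned less than 0.3 on the log2 scale, which 10119 transcripts did. Of these, the 80 with the widest gap between the lower of the San Quintin and Punta Prieta means and the higher of the Organ Pipe National Monument and Punta Onah means were kept. The regional levels, the differences between populations of a region and the changes over time averaged across populations were therefore used to choose the transcripts, and they are given as a description with no test.

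RNA from whole bodies of wild-type virgin females of Drosophila mojavensis was measured on 95 single-colour Cy3 NimbleGen arrays. Baja California was represented by 47 arrays, 22 from San Quintin and 25 from Punta Prieta, and Sonora by 48 arrays, 25 from Organ Pipe National Monument and 23 from Punta Onah. In each population females were raised on medium made from organ pipe cactus (46 arrays) or from agria cactus (49 arrays) and sampled after 0, 9 or 18 h of desiccation (31, 31 and 33 arrays). Of the 24 groups, 3 held 3 arrays, 19 held 4 and 2 held 5. All flies came from laboratory cultures kept under a shared light and temperature cycle. Flies held for 9 or 18 h without desiccation were not analysed here, so hours of desiccation and hours in the assay cannot be told apart. The labels name each array a replicate and give each of the 95 a stock number of its own, and they do not say whether these are separate fly stocks or cultures, so the p-values below measure only the spread between arrays, which may be technical.

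Drosophila mojavensis breeds in rotting columnar cacti of the Sonoran Desert region. Agria is the usual host in Baja California and organ pipe cactus the usual host on the Sonoran mainland, and populations of the 2 sides are known to have diverged in host-related traits and in gene expression. Desert drosophilids are known for resistance to desiccation, which rests on low water loss through the cuticle and on the use of stored reserves. Rows of the table carry FlyBase transcript identifiers, and 0 of the 14528 identifiers occur in the reference list of 15130 genes used here. The transcripts are therefore given by identifier, with no gene name, role or sequence.

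Before the levels, 2 arrays need naming. Replicate 4 of the organ pipe-reared Punta Prieta flies at 0 h lay below the midpoint between the regional means in 67 of the 80 members, and replicate 3 of that group in 18. Over all transcripts, the root mean square difference of replicate 4 was 0.281 to the other arrays of its own group and 0.175 to the Punta Onah group of the same diet and hour, and that of replicate 3 was 0.255 and 0.234. By this measure 30 of the 95 arrays were nearest a population other than their own, most of them the other population of their region. Both named arrays were among those nearest a population of the other region. Being nearest another population thus does not by itself single out either array. The reading of the members does single out replicate 4. It does not single out replicate 3, which had 62 members above the midpoint, against 55 on replicate 2 of the same group. Both named arrays were kept under their labels. For several named transcripts values without both are given as well, a comparison extended to them after the data were examined. Array medians ran between 10.17 and 10.40 on the log2 scale.

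The regional difference was small in most members and large in a few. Baja California exceeded Sonora by a median of 0.47 on the log2 scale, which is 1.38-fold, with a lowest value of 0.31 and a highest of 2.77. The median over all 14528 transcripts was -0.0042. The gap between the nearest populations of the regions had a median of 0.38 and was at least 1 in 7 members, between 0.5 and 1 in 12 and under 0.5 in 61. Baja California was at least 1.5-fold higher in 23 members, as it was in 0.743% of all transcripts, and at least 2-fold higher in 8 members, as in 0.206% of all transcripts. Since the choice used these values, nothing is read from those shares. Another 133 transcripts had a wider gap than the 80th member and were left out because their means moved by 0.3 or more with time.

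**Figure D1:**
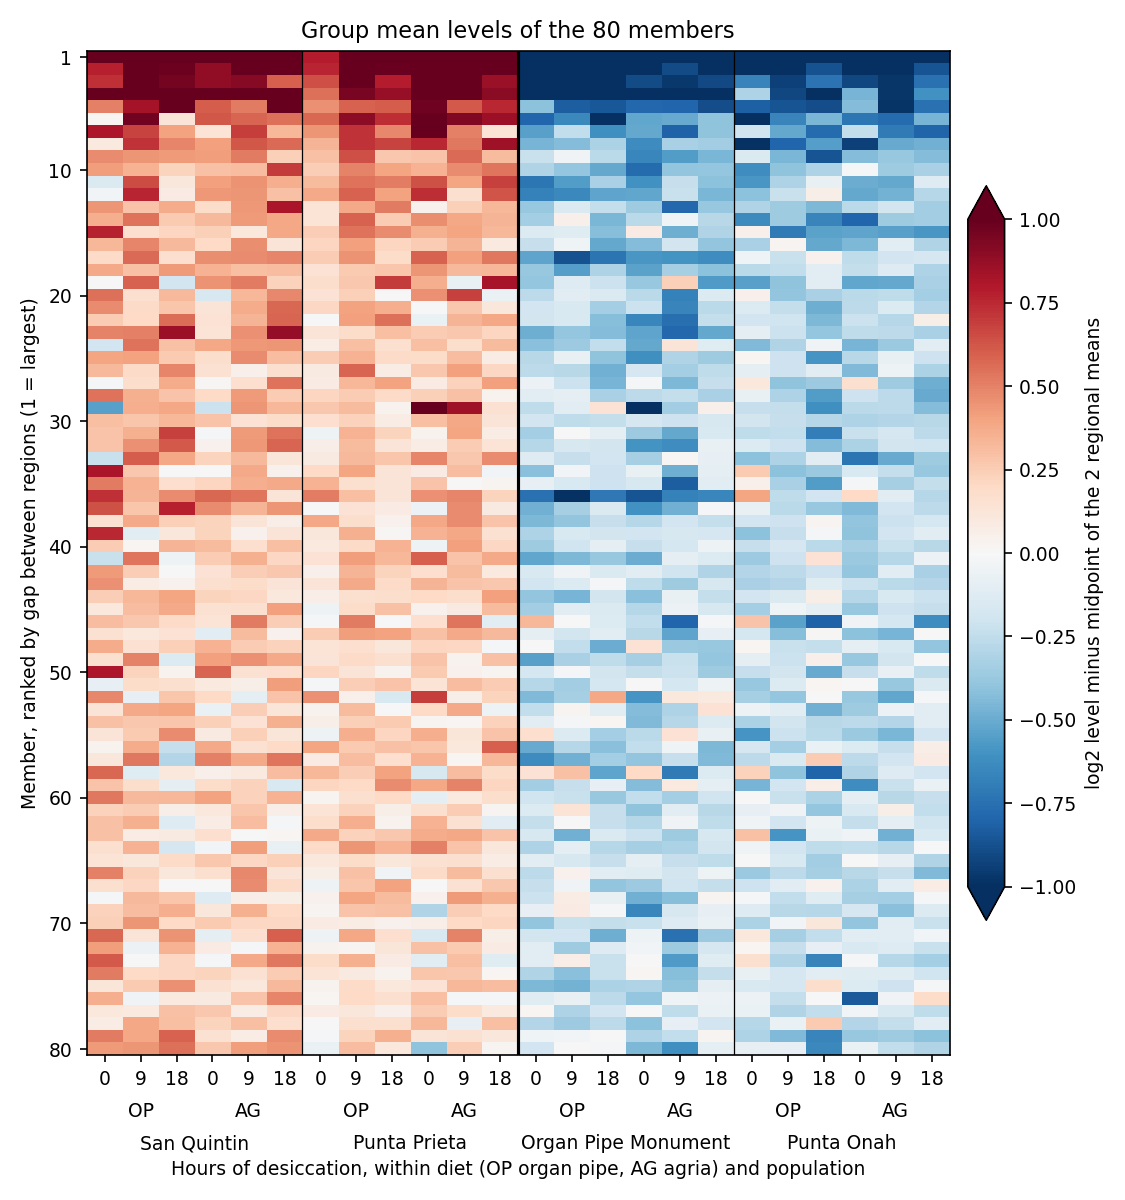
Group mean log2 levels of the 80 members (down, by rank of the gap) in the 24 groups (across, by population, diet and hours of desiccation), each minus the midpoint of the 2 regional means and coloured between -1 and 1. The San Quintin and Punta Prieta columns lie mostly above the midpoint and the Organ Pipe National Monument and Punta Onah columns mostly below it, with single cells of either sign against that pattern.

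FBtr0164933 had the widest gap, 2.65. Its lowest, median and highest levels were 7.59, 8.06 and 8.48 over the San Quintin arrays and 5.39, 8.09 and 8.47 over the Punta Prieta arrays. They were 4.77, 5.20 and 5.66 over the Organ Pipe National Monument arrays and 4.87, 5.12 and 6.99 over the Punta Onah arrays. A single Punta Prieta array, the replicate 4 named above, overlapped Sonora. The other arrays of its group read 8.25, 8.07 and 7.95, and without both named arrays the lowest Punta Prieta level was 7.41. The highest Sonoran level was that of the agria-reared Punta Onah replicate 4 at 0 h. That array also averaged 6.68 over the 10 members whose Sonoran mean lay in the dimmest 5% of transcript means, where the other 47 Sonoran arrays averaged between 5.67 and 6.27. The regional means of FBtr0164933 were 8.01 in Baja California and 5.24 in Sonora, a 6.82-fold difference on the array scale, or 7.12-fold without the 2 named arrays.

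FBtr0167831 ranked next, with a gap of 2.16. Its lowest, median and highest levels were 9.40, 10.13 and 11.09 over the San Quintin arrays and 8.07, 10.40 and 11.11 over the Punta Prieta arrays, against 7.24, 7.97 and 8.41 over the Organ Pipe National Monument arrays and 7.33, 7.88 and 8.75 over the Punta Onah arrays. The 8.07 again came from replicate 4 of the organ pipe-reared Punta Prieta group at 0 h, whose other arrays read 10.40, 10.36 and 10.44. Baja California averaged 10.17 and Sonora 7.95, a 4.66-fold difference, or 4.82-fold without the 2 named arrays. Its Sonoran mean lay above that of FBtr0164933, but it still counts among the members described below as dim in Sonora. Its Baja California mean was not dim by that measure.

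**Figure D2:**
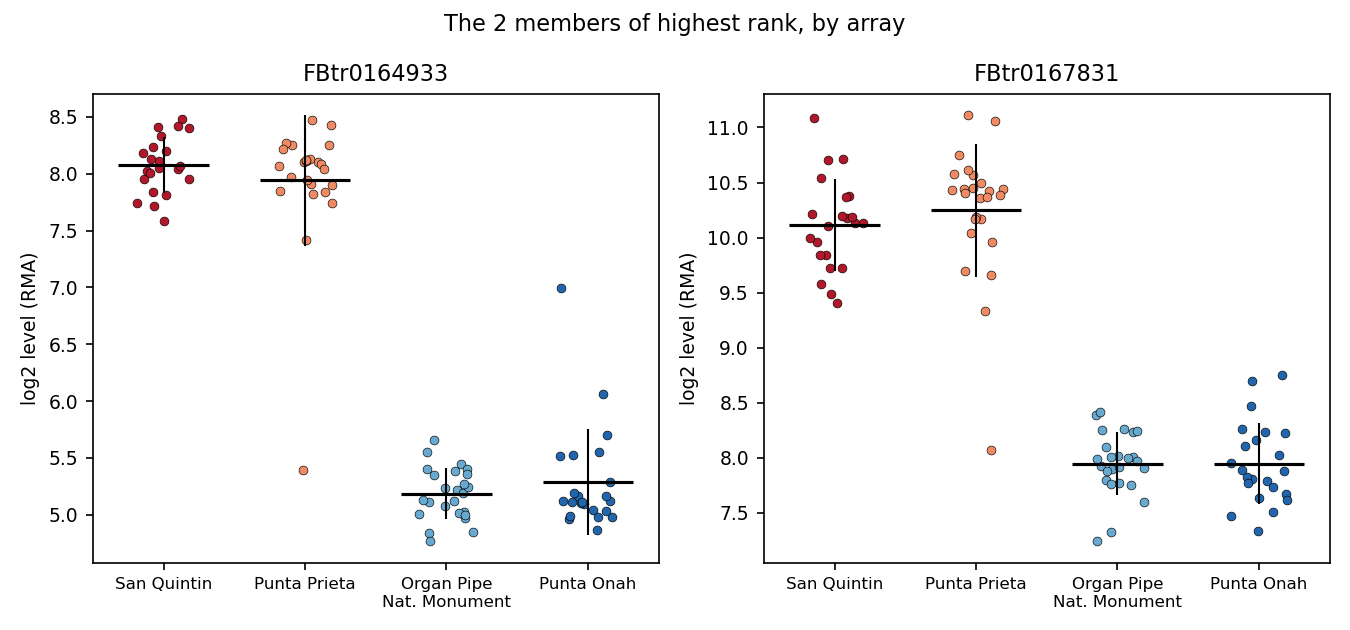
Log2 level of FBtr0164933 and FBtr0167831 on every array by population, with the mean (horizontal line) and SD (vertical line) over arrays. All San Quintin arrays lie above all Sonoran arrays in both panels, and 1 Punta Prieta array lies among the Sonoran arrays in each.

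FBtr0164933 and FBtr0167831 were joined by FBtr0161951 and FBtr0167648 as the 4 members in which every Baja California array exceeded every Sonoran array once the 2 Punta Prieta arrays were left out. Of all transcripts, 0.0344% met that condition. With all arrays, 0 members and 0.0% of all transcripts met it. The members were chosen by these values, and replicate 4 was named by its reading of them, so nothing is read from these shares. FBtr0161951 had a gap of 1.75 and a 3.60-fold regional difference, or 3.73-fold without the 2 arrays. FBtr0167648 averaged 8.13 in San Quintin and 7.77 in Punta Prieta, against 5.31 for Organ Pipe National Monument and 6.05 for Punta Onah. Its difference between the Sonoran populations, -0.74, was the most negative of the members. FBtr0167649 carries the identifier next to that of FBtr0167648, the only such pair among the members, and it had the lowest Sonoran mean. It averaged 6.50 in San Quintin and 6.29 in Punta Prieta, against 4.87 for Organ Pipe National Monument and 4.84 for Punta Onah. Whether the pair belongs to 1 gene was not tested.

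The members with the highest Sonoran means were FBtr0167404 and FBtr0165201. FBtr0167404 averaged 13.82 in Baja California and 13.51 in Sonora, with a gap of 0.28. The lowest, median and highest levels of FBtr0165201 were 12.87, 13.12 and 13.32 in San Quintin and 12.59, 13.04 and 13.41 in Punta Prieta, against 12.48, 12.66 and 13.03 in Organ Pipe National Monument and 12.35, 12.58 and 12.99 in Punta Onah. Without the 2 named arrays the lowest Punta Prieta level was 12.87. The medians of both Baja California populations lay above the highest Sonoran level, and the ranges overlapped. At the edge of the choice, FBtr0175595 had a gap of 0.260737 and FBtr0168137 one of 0.260567. The next transcripts, FBtr0175509 and FBtr0173814, had gaps of 0.259 and 0.257 and are not members.

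Many members were dim in Sonora. The Baja California mean lay in the dimmest 20% of all transcript means in 13 members, and the Sonoran mean did in 31. In 10 members the Sonoran mean lay in the dimmest 5%, and the lowest value of the table was 4.52. Background intensities were not used here, so a fold difference against such a level is a difference of array signal. An array reads how much labelled RNA binds to fixed probes, and amount of transcript and strength of binding cannot be told apart in these values. In whole flies, fewer cells of a type and less RNA per cell cannot be told apart either. The 80 time-stable transcripts with the widest gap in the other direction were similar in this respect, with a mean in the dimmest 20% in their lower region in 28. Their gap had a median of 0.37 and a highest value of 1.45, against 0.38 and 2.65 in the members.

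Within each region the members varied less than between the regions, as the rule favours. San Quintin exceeded Punta Prieta in 50 members and Punta Prieta exceeded San Quintin in 30, with a median absolute difference of 0.11. FBtr0168137 stood at one end, with means of 11.62 in San Quintin and 11.23 in Punta Prieta, and FBtr0167653 at the other, with 7.54 and 7.93. Organ Pipe National Monument exceeded Punta Onah in 36 members and Punta Onah exceeded Organ Pipe National Monument in 44, with a median absolute difference of 0.083. Signed as Organ Pipe National Monument minus Punta Onah, these differences ran between the -0.74 of FBtr0167648 and the 0.32 of FBtr0175595, whose means were 9.67 for Organ Pipe National Monument and 9.35 for Punta Onah.

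The regional difference recurred across the diets and hours. In 53 members both Baja California means exceeded both Sonoran means in all 6 combinations of diet and time, a condition met by 1.47% of all transcripts, and in 17 members they did so in 5 of 6. Without the 2 named arrays 52 members met it in all 6. With all arrays, the other 10 members met it in 4 or fewer, with 3 as the fewest. In 32 members the lowest of the 12 Baja California group means exceeded the highest of the 12 Sonoran group means, as in 0.365% of all transcripts, and without the 2 named arrays this held in 34. The regional mean difference was above 0 at every hour in 79 members, as in 17.1% of all transcripts, and the exception was FBtr0169361, with -0.0089 at 0 h. Over the members the difference had a median of 0.48 at 0 h, 0.55 at 9 h and 0.49 at 18 h. It had a median of 0.46 in flies reared on organ pipe cactus and 0.48 in flies reared on agria. Because the rule averaged over these groups, the values describe how evenly the chosen difference was spread and test nothing.

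**Figure D3:**
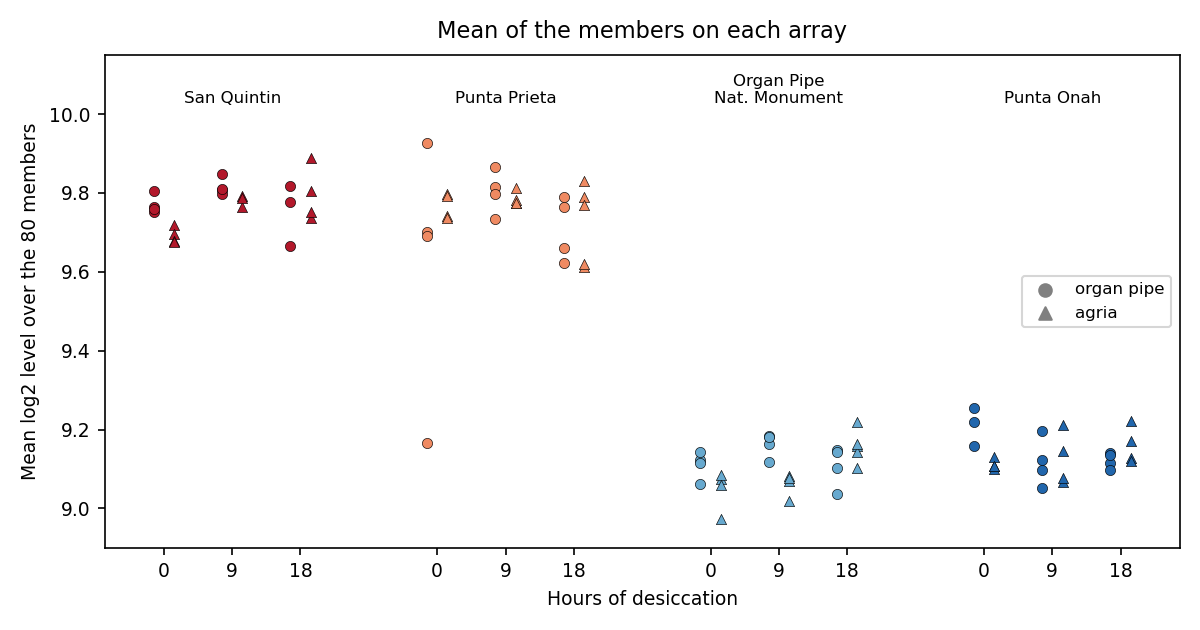
Mean log2 level over the 80 members on each array, by population and hours of desiccation (circles, organ pipe; triangles, agria). Baja California arrays lie between 9.61 and 9.93 apart from 1 Punta Prieta array at 9.17, and Sonoran arrays lie between 8.97 and 9.25.

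Averaged over the 80 members, a Baja California array read 9.17 at the lowest, 9.78 at the median and 9.93 at the highest, against 8.97, 9.12 and 9.25 for a Sonoran array. The 9.17 belonged to replicate 4 of the organ pipe-reared Punta Prieta group at 0 h, and without the 2 named arrays the lowest was 9.61. No other Baja California array came within the Sonoran range. The number of members above the regional midpoint ran between 13 and 79 over the Baja California arrays, between 49 and 79 without those 2, and between 2 and 25 over the Sonoran arrays. Member by member the overlap was wider. Taking every pair of a Baja California and a Sonoran array, Baja California was higher in 90.9% of pairs in the median member and in 73.7% in the lowest.

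The members were level over time as an average over 4 populations, and that average hid changes of opposite direction in some of them. Whether Baja California and Sonora differed in the change between 0 and 18 h was not used by the rule and was tested with limma across all transcripts. The difference of changes passed an adjusted p of 0.05 in 20 of the 80 members. It did so in 42.3% of all transcripts and in 35.0% of the time-stable ones, so the members' share lay below both, a difference that was not tested. The members' median absolute difference was 0.157, against 0.152 over the time-stable transcripts. Baja California changed more positively in 12 members, where 19.4% of all transcripts did, and less positively in 8, where 22.9% did. Leaving out each replicate number in turn gave between 4 members, with 13.9% of all transcripts, and 21 members, with 48.7%. Leaving out the 2 Punta Prieta arrays gave 23 members and 46.8% of all transcripts. Of those 23, 10 changed more positively in Baja California and 13 less positively, so the more common direction depended on these arrays. It also varied with the setting, with 2 more positive and 5 less positive in agria flies alone. With array weights there were 17 and 8. Another setting used each array's score on the main component of spread between arrays of a group as a covariate. This component held 41.8% of the within-group variance. The scores were not centred by group, so they can also carry differences between groups, the tested one included. With this covariate 6 members (7.5%) were called, 3 of them among the 20, against 4.36% of all transcripts. In organ pipe flies alone 4 members (5.0%) were called, against 3.96% of all transcripts. In these 2 settings the members' share was thus not below that of all transcripts. The counts are small and the shares were not tested against each other, so no contrast is read from them.

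The 20 called members included both widening and narrowing regional differences. In the 12 with a positive difference of changes, the median regional difference was 0.25 at 0 h and 0.67 at 18 h, and in 8 of them the mean level went up in Baja California and down in Sonora. In the 8 with a negative one, it was 0.67 at 0 h and 0.22 at 18 h, and in 7 of them the mean level went down in Baja California and up in Sonora. Over all 80 members 16 showed the first of these patterns, 17 the second, 26 a higher mean at 18 h in both regions and 21 a lower mean in both. The rule held the time means over all populations within 0.3, so a large difference of changes tends to appear as opposite directions. The medians at 0 and 18 h follow the sign used to split the called members. These counts and medians therefore describe the members and test nothing.

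**Figure D4:**
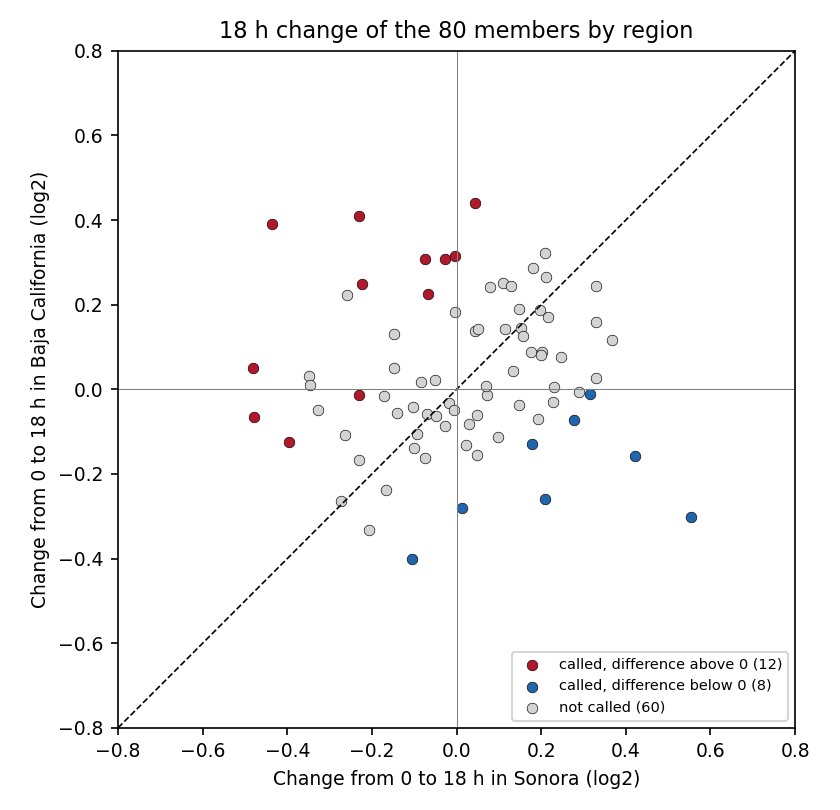
Change in log2 level between 0 and 18 h in Baja California (vertical) against that in Sonora (horizontal) for each of the 80 members, with the line of equal change dashed. The 12 called members with a positive difference lie above the line and the 8 with a negative difference below it, among 60 that were not called.

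FBtr0170007 had the most negative difference of changes. At 0 h its lowest, median and highest levels were 9.59, 10.42 and 10.63 over 16 Baja California arrays, against 8.95, 9.41 and 9.65 over 15 Sonoran arrays. At 18 h they were 9.52, 10.04 and 10.35 over 16 Baja California arrays, against 9.37, 9.84 and 10.76 over 17 Sonoran arrays. The regions barely overlapped at 0 h, also without the 2 named arrays, where the lowest Baja California level was 9.62. At 18 h the whole Baja California range lay inside the Sonoran one. The mean changed by -0.30 in Baja California and by 0.55 in Sonora, a difference of -0.86 ± 0.133 (SE; adjusted p = 1.11e-05). The change was -0.059 in San Quintin and -0.54 in Punta Prieta, against 0.76 for Organ Pipe National Monument and 0.35 for Punta Onah. FBtr0170007 was called under each of 15 alternative settings, with differences between -0.99 and -0.63, and at -0.92 without the 2 named arrays.

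FBtr0165046 narrowed too. Its mean was 7.97, 7.98 and 7.81 at 0, 9 and 18 h in Baja California, against 7.23, 7.56 and 7.66 in Sonora. The populations of Baja California moved apart. San Quintin went from 7.94 at 0 h to 7.58 at 18 h, while Punta Prieta ended at 8.04, slightly above its mean at 0 h. At 18 h San Quintin lay below Organ Pipe National Monument (7.61) and Punta Onah (7.70), and Punta Prieta lay above both. In the comparison inside Baja California given below, FBtr0165046 was not called. The ranges overlapped at both ends of the course, with 7.25 to 8.65 in Baja California against 6.55 to 7.77 in Sonora at 0 h. Without the 2 named arrays the lowest Baja California level at 0 h was 7.66. The difference of changes was -0.58 ± 0.165 (SE; adjusted p = 0.00611), and it was -0.27 with the shared component of spread as a covariate (adjusted p = 0.324). It was called under 10 of 14 alternative settings, and without the 2 named arrays it was -0.67 (adjusted p = 0.00173).

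FBtr0169361 had the most positive difference of changes. Its lowest, median and highest levels at 0 h were 5.21, 5.71 and 6.59 in Baja California, against 5.25, 5.70 and 7.12 in Sonora, so the regions coincided before desiccation. At 18 h they were 5.42, 6.11 and 7.29 in Baja California, against 5.04, 5.29 and 5.74 in Sonora. The means differed by -0.0089 at 0 h, 0.58 at 9 h and 0.82 at 18 h, and the difference of changes was 0.83 ± 0.203 (SE; adjusted p = 0.00242). The 7.12 was read on the agria-reared Punta Onah replicate 4, and without replicate 4 of every group the difference was 1.03 (adjusted p = 0.000432). With the shared component as a covariate it was 0.66 (adjusted p = 0.0559), and over 14 alternative settings it was called under 11. This transcript is among the dim ones in both regions.

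FBtr0167649, the dimmest member in Sonora, widened as well. Its lowest, median and highest levels were 5.01, 6.39 and 6.76 at 0 h and 5.76, 6.68 and 7.41 at 18 h in Baja California. In Sonora they were 4.70, 4.83 and 6.26 at 0 h and 4.56, 4.76 and 5.25 at 18 h. The 6.26 was read on the organ pipe-reared Organ Pipe National Monument replicate 3. The agria-reared Punta Onah replicate 4 read 6.15 at 0 h, and the next highest Sonoran level at that hour was 5.07. The Sonoran mean at 0 h thus rests in part on those arrays. The regions did not overlap at 18 h. The difference of changes was 0.64 ± 0.184 (SE; adjusted p = 0.00663), and it was called under 11 of 14 alternative settings, with an adjusted p of at most 0.114. Without the 2 named arrays it was 0.51 (adjusted p = 0.0149), and the lowest Baja California level at 0 h was 5.69. Inside Baja California the mean changed by 0.85 in San Quintin and by -0.034 in Punta Prieta. The Punta Prieta mean at 0 h includes 5.01 on the replicate 4 named above. Without the 2 named arrays the Punta Prieta median was 6.61 at 0 h, against 6.30 at 18 h. Whether the changes of San Quintin and Punta Prieta differed is part of the comparison inside Baja California given below. FBtr0167649 was not called in it.

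At 9 h the difference between the regions in the change since 0 h passed the test in 2 members, where 0.234% of all transcripts and 0.138% of time-stable ones did, and 18 members (22.5%) had an unadjusted p under 0.05, as had 12.6% of all transcripts. The difference was above 0 in 54 of the 80 members and in 7469 of all 14528 transcripts. Its median was 0.091 in the members and 0.0057 over all transcripts. The Baja California mean at 0 h includes the Punta Prieta replicate 4 named above, which was low in 67 of the 80 members. A low reading at 0 h raises this difference, and the count and median without that array are not given here, so nothing is read from them. FBtr0171052 was one of the 2. At 0 h its lowest, median and highest levels were 8.85, 9.25 and 9.83 in Baja California, against 8.27, 9.17 and 9.69 in Sonora. Without the 2 named arrays the Baja California levels at 0 h began at 8.94. At 9 h they were 8.83, 9.58 and 9.90 in Baja California, against 8.15, 8.65 and 9.55 in Sonora. The 9 h change was 0.17 in San Quintin and 0.45 in Punta Prieta, against -0.44 for Organ Pipe National Monument and -0.48 for Punta Onah. The difference of changes was 0.77 ± 0.157 (SE; adjusted p = 0.0105), and 0.75 without the 2 named arrays. The other was FBtr0170007, at -0.63 ± 0.135 (SE; adjusted p = 0.0144), and -0.69 without them. Leaving out a replicate number gave between 0 and 2 members, and population as a random block gave 0, where both had an adjusted p of 0.0512. Over 15 alternative settings FBtr0171052 was called under 8 and FBtr0170007 under 10.

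**Figure D5:**
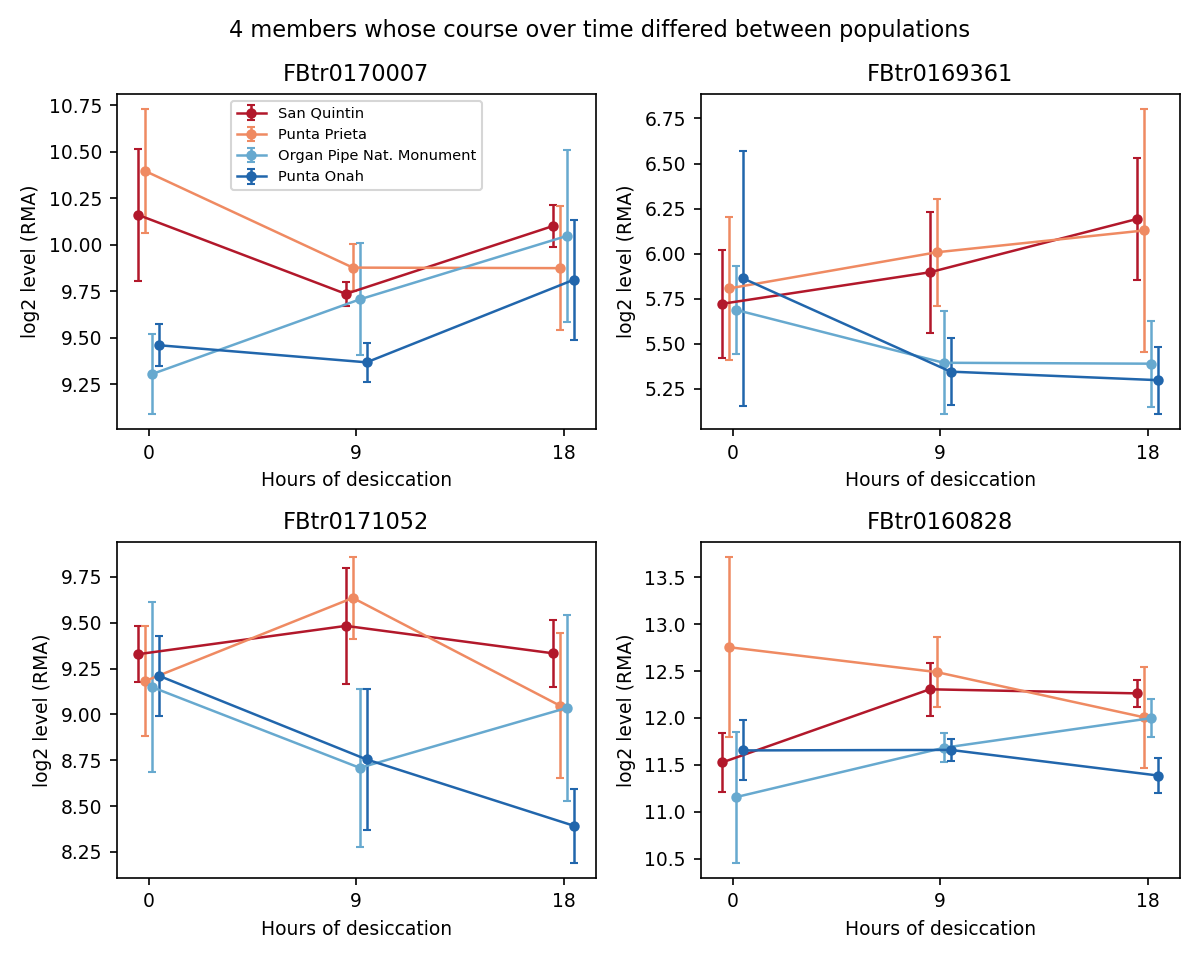
Mean log2 level by population at 0, 9 and 18 h of desiccation for FBtr0170007, FBtr0169361, FBtr0171052 and FBtr0160828, with bars for the SD over the arrays of a population and hour. In FBtr0170007 the regions meet at 18 h, in FBtr0169361 they part after 0 h, in FBtr0171052 they are apart at 9 h with Punta Prieta and Organ Pipe National Monument close again at 18 h, and in FBtr0160828 the populations of each region move in opposite directions.

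The 18 h change also differed between populations of 1 region in a few members. Between San Quintin and Punta Prieta 1 member passed the test, where 0.64% of all transcripts did, and 11 had an unadjusted p under 0.05 (13.75%, against 8.91% of all transcripts). That member, FBtr0160828, had lowest, median and highest levels of 11.01, 11.49 and 11.90 at 0 h and 11.97, 12.33 and 12.37 at 18 h in San Quintin, against 11.10, 13.17 and 13.52 at 0 h and 11.17, 12.12 and 12.82 at 18 h in Punta Prieta. Its mean changed by 0.74 in San Quintin and by -0.75 in Punta Prieta, and the difference was 1.49 ± 0.266 (SE; adjusted p = 0.000288). In the organ pipe-reared Punta Prieta flies at 0 h its levels were 12.96, 13.29, 11.37 and 11.10, the last 2 on the arrays named above. Without those the difference was 1.97 (adjusted p = 2.42e-09) and 2 members were called. Leaving out a replicate number gave between 0 and 2 members, and FBtr0160828 was called under 12 of 14 alternative settings.

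Between Organ Pipe National Monument and Punta Onah 2 members passed, where 0.805% of all transcripts did, and 22 had an unadjusted p under 0.05 (27.5%, against 11.9% of all transcripts). FBtr0160828 was again one of them. Its lowest, median and highest levels were 10.54, 10.80 and 12.32 at 0 h and 11.73, 11.94 and 12.42 at 18 h in Organ Pipe National Monument, against 11.35, 11.49 and 12.23 at 0 h and 11.13, 11.37 and 11.68 at 18 h in Punta Onah. The populations overlapped at 0 h and were apart at 18 h. The mean changed by 0.85 in Organ Pipe National Monument and by -0.27 in Punta Onah, a difference of 1.12 ± 0.266 (SE; adjusted p = 0.0142). In FBtr0168137, the last member by rank, the levels were 10.55, 10.84 and 11.22 at 0 h and 10.92, 11.13 and 11.39 at 18 h in Organ Pipe National Monument, against 10.97, 11.12 and 11.21 at 0 h and 10.42, 10.80 and 10.98 at 18 h in Punta Onah. The mean changed by 0.27 in Organ Pipe National Monument and by -0.40 in Punta Onah, a difference of 0.66 ± 0.160 (SE; adjusted p = 0.0161). Leaving out a replicate number gave between 0 and 2 members here too, and over 14 alternative settings FBtr0160828 was called under 10 and FBtr0168137 under 9.

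Rearing diet was not detected in the members by limma. For organ pipe minus agria 0 members passed, where 0.0138% of all transcripts did, and 9 had an unadjusted p under 0.05 (11.25%, against 3.24% of all transcripts). The differences ran between -0.226 and 0.135, the smallest adjusted p was 0.998, and the median half-width of the 95% interval was 0.100. For Baja California against Sonora in the diet difference 0 members and 0.0% of all transcripts passed, with 1 member (1.25%) and 1.15% of all transcripts at an unadjusted p under 0.05 and a median half-width of 0.201. For the diets in the 18 h change 0 members and 0.0% of all transcripts passed, with 8 members (10.0%) and 8.08% of all transcripts at an unadjusted p under 0.05, a smallest adjusted p of 0.441 and a median half-width of 0.245. With array weights the test of regions in the diet difference gave 1 member and 0.0138% of all transcripts, and that of diets in the 18 h change gave 3 members (3.75%) and 1.72% of all transcripts.

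The spread between arrays of 1 group had a higher median in the members than over all transcripts, with no test. The within-group SD was 0.145 at the lowest, 0.247 at the median and 0.448 at the highest, against a median of 0.184 over the time-stable transcripts and 0.201 over all transcripts. The 80 time-stable transcripts higher in Sonora had a median of 0.247. The 3160 pairs of members were weakly related in their deviations from group means, with a median r of 0.084 and values between -0.67 and 0.85. These pairs share the same arrays. The absolute correlation of a member with the shared component of spread had a median of 0.372, against 0.467 over all transcripts.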

How the data were processed

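The deposited values cover 95 arrays. Per the submitters' processing notes the authors made these log2 values with RMA, which corrects background, normalizes quantiles between arrays and summarises probes; the version is not given in the sources used here. Columns were matched to samples by their labels, with 0 left unused, and 0 pairs of arrays held identical values. Detection calls are unknown here, and the number of arrays limits the precision.

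The 24 group means were fitted to all 14528 transcripts with limma 3.58.1 in R 4.3.3, without filter, block or covariate (71 residual degrees of freedom). The p-values are two-sided and adjusted by the Benjamini-Hochberg method over all transcripts, with calls under 0.05. A region stands for 2 populations, so its p-values do not measure the spread between populations. The fit was tested on simulated data with spread drawn independently for each transcript and array. Those data hold no shared component of spread, so that test does not cover it. Replicate numbers did not pair arrays: the median correlation of deviations was -0.010 for equal numbers and 0.0016 for other numbers.

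The members and lists were chosen with earlier results of these data known. Transcripts were named by rule: ranks 1, 2, 79 and 80, the 2 just outside, the highest and lowest Sonoran means, the most extreme differences between populations, and the 2 most positive and 2 most negative called differences per test. FBtr0161951 was named after its values were seen. Alternatives covered scaling, array weights, replicate block, left-out replicates and arrays, a filter on the dimmest 20% of transcripts, the shared component as a covariate, a random population block, each diet alone and the time limit. The gene lists could not be joined to identifiers and were not used.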

Additional observations from a re-analysis of the deposited data

Results flagged for a closer look

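In 6 cases an array stood apart from the others of its group by Dixon's test, out of 63 tests (the mean over members, FBtr0164933 and FBtr0167831, in the 21 groups of 4 or more arrays), of which chance flags about 1 in 20. The mean over the 80 members was 9.81 on Punta Prieta agria 9 h replicate 4. FBtr0164933 read 5.39 on Punta Prieta organ pipe 0 h replicate 4, 8.13 on Punta Prieta organ pipe 18 h replicate 4 and 6.99 on Punta Onah agria 0 h replicate 4. FBtr0167831 read 8.07 on Punta Prieta organ pipe 0 h replicate 4 and 7.24 on Organ Pipe National Monument agria 0 h replicate 2.

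Changes that differed between groups by limma's test of the difference were the following. For Baja California against Sonora at 18 h they were 0.64 in FBtr0167649, 0.83 in FBtr0169361, -0.86 in FBtr0170007 and -0.58 in FBtr0165046. At 9 h they were -0.63 in FBtr0170007 and 0.77 in FBtr0171052. For San Quintin against Punta Prieta at 18 h the difference was 1.49 in FBtr0160828. For Organ Pipe National Monument against Punta Onah at 18 h it was 0.66 in FBtr0168137 and 1.12 in FBtr0160828.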

How the results depend on the processing

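The median gap ran between 0.314 (organ pipe flies) and 0.382, against 0.377. The rule chose 46 of the 80 again with a time limit of 0.5, 53 from organ pipe flies, 60 from agria flies, and between 67 and 80 with a replicate number or 1 array left out. For the regions in the 18 h change (20 members), agria flies alone gave 7 (9.31% of all transcripts), organ pipe flies alone 4 (3.96%), the shared component as a covariate 6 (4.36%), and left-out replicates between 4 and 21 (13.9% and 48.7%). For the regions at 9 h (2 members), array weights gave 18 (14.4% of all transcripts, against 0.234%), organ pipe flies 0, population as a random block 0, and left-out replicates between 0 and 2. For San Quintin against Punta Prieta (1 member), agria flies gave 2 (0.681% of all transcripts), array weights 5 (1.99%), organ pipe flies 0, the covariate 2 (1.18%), leaving out the 2 Punta Prieta arrays 2 (1.47%), and left-out replicates between 0 and 2. For Organ Pipe National Monument against Punta Onah (2 members), agria flies gave 1 (0.441%), array weights 5 (3.15%), organ pipe flies 0, and left-out replicates between 0 and 2. For the diet tests (0 members), array weights gave 1 for region by diet (0.0138%) and 3 for diet by 18 h (1.72%). With the replicate number as a block, 19, 2, 1 and 2 members were called in the first 4 tests and 0 in the diet tests; 21 of 93 arrays were nearest their own number. The cause of these shifts was not tested. Each diet alone has fewer arrays, and whether that accounts for its counts was not tested either. Of the named differences, 96 values under an alternative kept their side of the threshold and 33 lost the call, and 0 reversed. That count covers the named transcripts only. Of the 20 members called for the regions in the 18 h change, 18 kept their direction with the shared component as a covariate. Detection above background is unknown for the 31 members in the dimmest 20% in Sonora.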
